A study of Mus musculus with 20 samples.

Results

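The Dlx and Msx homeobox genes were followed across 20 arrays of C2C12 cells, an established mouse myoblast line that can form muscle fibres or take on osteoblast traits. The genes considered were Dlx1 to Dlx6, Msx1 and Msx2, 8 in all, found by the gene symbol of the platform annotation. Of these, 6 had a probe set of their own (Dlx2, Dlx3, Dlx4, Dlx5, Dlx6 and Msx2, each with 1 probe set) among 22180 genes tested. Dlx1 and Msx1 were covered only by probe sets that the annotation also assigns to a transcript of the opposite strand, and those are described apart. The series sets 3 small molecules, known by the code names 942, 178 and 181 and presented in its title as activators of BMP signalling, beside BMP4, a secreted bone morphogenetic protein. Untreated cells had 2 arrays and cells given methanol had 3. Each BMP4 dose (10, 100 and 300 ng/ml) had 2 arrays, and each compound had 1 array at each of 6.25, 12.5 and 25 µM. All wells held the same cell line in medium with serum, and the labels used here do not state how long treatment lasted. The doses 12.5 µM and 100 ng/ml stand in the sample labels but not in the treatment protocol.

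Dlx genes encode relatives of the Drosophila protein Distal-less and lie in the genome as convergently transcribed pairs (Dlx1 with Dlx2, Dlx3 with Dlx4, Dlx5 with Dlx6). BMP ligands act through serine/threonine kinase receptors that phosphorylate SMAD1, SMAD5 and SMAD9, and several Dlx and Msx genes are well known targets of this pathway in skeletal and craniofacial tissue. DLX5 promotes osteoblast differentiation, while MSX proteins act mostly as transcriptional repressors and MSX1 can hold back myogenic differentiation.

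RefSeq promoter windows (GRCm38.p6, 250 bases before to 50 after the start) were matched for 4 of the 8 genes. The windows of Dlx2 and Msx2 are shown because these are the matched genes with a probe set of their own, and both had their highest signals at the highest dose of BMP4. Both genes are read from the minus strand and both sequences are written 5′ to 3′. Capitals mark the motifs GGCGCC, a GC-rich SMAD1/5 site, and CAGACA, a SMAD-binding element with flanking bases, each searched on both strands.
Dlx2, chr2:71546705-71547004: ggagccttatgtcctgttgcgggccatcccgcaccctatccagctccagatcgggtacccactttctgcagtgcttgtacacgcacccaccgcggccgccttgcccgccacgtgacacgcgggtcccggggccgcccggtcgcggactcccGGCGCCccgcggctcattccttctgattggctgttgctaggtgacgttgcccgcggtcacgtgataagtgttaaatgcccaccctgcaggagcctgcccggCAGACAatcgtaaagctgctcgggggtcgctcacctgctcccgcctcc
Msx2, chr13:53472731-53473030: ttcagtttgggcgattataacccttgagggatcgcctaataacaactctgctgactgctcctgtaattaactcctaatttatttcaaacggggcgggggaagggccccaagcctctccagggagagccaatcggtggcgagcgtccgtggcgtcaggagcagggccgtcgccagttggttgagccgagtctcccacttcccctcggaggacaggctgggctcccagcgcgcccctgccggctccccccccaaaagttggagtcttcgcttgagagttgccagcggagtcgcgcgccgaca
The Dlx2 window, with a GC content of 66.3%, held GGCGCC once, with its first base at position -99 from the start, and CAGACA once, at position 3. GGCGCC was present in 11.9% and CAGACA in 21% of 32851 mouse promoter windows of the same 300 bases. The Msx2 window, with a GC content of 61%, held neither of them. GTCTAGAC, a palindromic SMAD site found in 0.213% of all windows, and TAATTG, a homeodomain core found in 8%, were in neither window. CACGTG occurred in the Dlx2 window at -142 and -42, against 7.15% of all windows with a match, and these matches are counted again under CANNTG, the general E box. CANNTG was in 72.3% of all windows, among them that of Msx2, at -79, and that of Dlx2, which also had it at 34. These matches are letters in a window and not measured binding sites.

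Values are the log2 signals as deposited, with array medians between 4.93 and 5.05. A log2 signal depends on the probe set as well as on the RNA, so the members were compared between arrays and not with each other by level. The sample titles carry running numbers, and 10 to 17 (the first run) and 18 to 29 (the second run) each hold 1 array of untreated cells and of every BMP4 dose. The numbers go on without a gap and no sample label names these runs, so the split was inferred. Compound 942 lay in the first run, and 178 and 181 in the second. Labelling by the Affyexpress method was stated for 4 arrays, namely BMP4 300 ng/ml of the first run and all 3 of compound 942. The fitted model (limma, with group means and a labelling term) therefore took its value at 300 ng/ml from the second-run array alone. Nothing in the labels says whether replicate arrays stem from different cultures, and p-values then cover only the spread among these samples, which may be technical. In bulk RNA, more cells expressing a gene and more RNA per cell cannot be told apart. All 6 myoblast markers listed had a probe set, among them Myod1, the master regulator of the lineage, at a log2 signal of 10.4 to 10.7 in the 5 control arrays.

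BMP4 raised Dlx2 and Dlx5, and the signal of Msx2 climbed with its dose, while Dlx3, Dlx4 and Dlx6 were not called. In the mean over the 3 doses against untreated cells, 2 of the 6 members rose and none fell at an adjusted p under 0.05 (limma, Benjamini-Hochberg over all genes), where 4.20% of all genes rose. The median difference of the 6 members was 0.24 on the log2 scale, beside -0.015 over all genes. None of the 6 passed for methanol or for any compound.

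Dlx2 encodes a homeodomain factor best known from forebrain interneurons and the branchial arches. Its log2 signal was 6.91 and 6.97 in untreated cells and 6.95, 6.83 and 6.94 with methanol. With BMP4 it was 7.73 and 7.03 at 10 ng/ml, 9.67 and 7.77 at 100 ng/ml, and 9.83 and 9.79 at 300 ng/ml, the first-run array being given first. All 6 BMP4 arrays lay above all 5 control arrays, and the ranges of the 3 doses did not overlap. The mean went from 6.94 ± 0.044 (SD, n = 2) in untreated cells to 7.38 ± 0.50 (SD, n = 2), 8.72 ± 1.34 (SD, n = 2) and 9.81 ± 0.031 (SD, n = 2) as the dose grew. The mean over doses was 1.69 higher than untreated on the log2 scale, or 3.22-fold (SE 0.37, 95% interval 0.88 to 2.49, limma adjusted p = 0.0126). By dose, the difference was 0.44 at 10 ng/ml (adjusted p = 0.811), 1.77 at 100 ng/ml (SE 0.43, adjusted p = 0.0235) and 2.85 at 300 ng/ml (7.20-fold, SE 0.53, adjusted p = 0.00527). Dlx2 thus rose at 100 and 300 ng/ml and gave no call at 10 ng/ml. The call on the mean was lost without untreated replicate 1 (1.65, adjusted p = 0.112), untreated replicate 2 (1.72, adjusted p = 0.0831) or BMP4 300 ng/ml replicate 2 (1.11, adjusted p = 0.129), and with 1 common mean for the doses (1.45, adjusted p = 0.0798). Without BMP4 300 ng/ml replicate 2 the other array of that dose also dropped out, so the mean then covered 10 and 100 ng/ml alone. At 100 ng/ml the call was lost without either untreated array or without BMP4 replicate 1 (0.82). At 300 ng/ml it was kept in every alternative that could give a value, none of which left out replicate 2. With the labelling term that array alone gives the value at this dose.

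Dlx5, the partner of Dlx6 and an activator of osteoblast genes, showed the same order of doses. Its log2 signal was 3.82 and 3.47 in untreated cells and 3.76, 3.48 and 3.82 with methanol. It was 3.87 and 3.67 at 10 ng/ml BMP4, 5.72 and 4.08 at 100 ng/ml and 6.37 and 6.18 at 300 ng/ml. At 10 ng/ml, 1 array lay among the controls and 1 just above the highest of them (3.87 against 3.82). Those at 100 and 300 ng/ml lay above all controls, with no overlap between these 2 doses. Group means were 3.65 ± 0.25 (SD, n = 2) without treatment, 3.77 ± 0.14 (SD, n = 2), 4.90 ± 1.16 (SD, n = 2) and 6.27 ± 0.13 (SD, n = 2) at the 3 doses. The mean over doses exceeded untreated by 1.30 on the log2 scale, or 2.47-fold (SE 0.32, 95% interval 0.59 to 2.01, limma adjusted p = 0.0262). At 300 ng/ml, where the model used the second-run array alone, the difference was 2.53, or 5.78-fold (SE 0.47, adjusted p = 0.00498). The difference at 100 ng/ml, 1.25, did not pass (adjusted p = 0.0653), and that at 10 ng/ml was 0.12. Dlx5 was therefore called at the highest dose. There its call held in every alternative that could give a value, none of which left out replicate 2 of that dose. Its arrays at 100 ng/ml were 1.63 apart, and without replicate 2 of that dose the difference there was 2.07 (adjusted p = 1.77e-04). At 100 ng/ml it also passed without the labelling term (adjusted p = 0.0450), with a term for the run (0.0186), and against methanol (0.0446) or both controls together (0.0150). The call on the mean was lost without untreated replicate 1 (1.48), untreated replicate 2 (1.13) or BMP4 10 ng/ml replicate 1 (1.27). It was also lost with 1 common mean for the doses (1.06, adjusted p = 0.205). Leaving out BMP4 300 ng/ml replicate 2 removed that dose, and the mean of 10 and 100 ng/ml gave no call (0.69, adjusted p = 0.326).

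Dlx6, the neighbour of Dlx5, did not follow it. Its log2 signal ran from 3.82 to 4.70 with a median of 4.37 over the 5 control arrays, and from 4.03 to 4.49 over the 6 BMP4 arrays, inside the control range. The mean over BMP4 doses differed from untreated by -0.23 (95% interval -0.69 to 0.23, adjusted p = 0.660), and against methanol the sign turned (0.072). Every group mean of Dlx6 lay below 5.00, the median of all values and the limit of the filter on dim probe sets. Those of Dlx5 did so too except at 300 ng/ml BMP4 (6.27), and those of Dlx4 except for 942 at 25 µM (5.07). Whether these probe sets stood above background was not tested. The transcripts beside Dlx5 and Dlx6, named Dlx6os1 and Dlx6os2, differed by -0.15 and -0.037 and neither passed.

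Dlx3, a factor of epidermis, tooth and bone, and its partner Dlx4 were not called in the mean over doses. Dlx3 had log2 signals of 9.26 and 9.33 in untreated cells and 9.19, 9.19 and 9.32 with methanol. With BMP4 it had 9.38 and 8.58 at 10 ng/ml, 9.56 and 9.21 at 100 ng/ml and 9.55 and 9.79 at 300 ng/ml. The lowest Dlx3 signal of all 20 arrays was thus an array at the lowest BMP4 dose, and both arrays at the highest dose lay above every control. Neither the mean over doses (0.094, adjusted p = 0.855) nor any dose passed (0.50 at 300 ng/ml, adjusted p = 0.331). The sign of the Dlx3 mean turned when BMP4 10 ng/ml replicate 1 was left out (-0.039). It also turned without BMP4 300 ng/ml replicate 2 (-0.11), where only 10 and 100 ng/ml were left for the mean. Dlx4 ran from 4.54 to 4.78 in the controls, was 4.61 and 4.73 at 10 ng/ml, 4.97 and 4.75 at 100 ng/ml and 5.01 and 4.90 at 300 ng/ml. Only the highest dose had both Dlx4 arrays above all controls, and the mean over doses, 0.16 above untreated, did not pass (adjusted p = 0.619). Dlx4os, a transcript named for the opposite strand of Dlx4, differed by 0.22 (adjusted p = 0.464).

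Msx2, a repressor and regulator of calvarial bone growth, showed a smaller shift than Dlx2 or Dlx5. Its log2 signal was 5.20 and 5.11 in untreated cells and 5.09, 5.16 and 4.77 with methanol. It was 5.09 and 4.83 at 10 ng/ml BMP4, 5.76 and 5.48 at 100 ng/ml and 6.51 and 5.84 at 300 ng/ml. The lowest dose overlapped the controls, and the other doses lay above all 5 control arrays and did not overlap each other. Means were 5.16 ± 0.063 (SD, n = 2) in untreated cells, 4.96 ± 0.18 (SD, n = 2), 5.62 ± 0.20 (SD, n = 2) and 6.17 ± 0.47 (SD, n = 2) at the rising doses. The mean over doses exceeded untreated by 0.31 (SE 0.15, 95% interval -0.021 to 0.65) and did not pass (adjusted p = 0.292). Neither did 100 ng/ml (0.46, adjusted p = 0.165) or 300 ng/ml (0.68, adjusted p = 0.0931). With methanol as the control Msx2 passed for the mean (0.46, adjusted p = 0.0470), at 100 ng/ml (0.61, adjusted p = 0.0340) and at 300 ng/ml (0.83, adjusted p = 0.0270), and with both controls joined the adjusted p values were 0.0309, 0.0246 and 0.0209. At 300 ng/ml it also passed without the labelling term (1.02, adjusted p = 0.00580), where both arrays count, and with a term for the run (0.77, adjusted p = 0.0326).

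**Figure D1:**
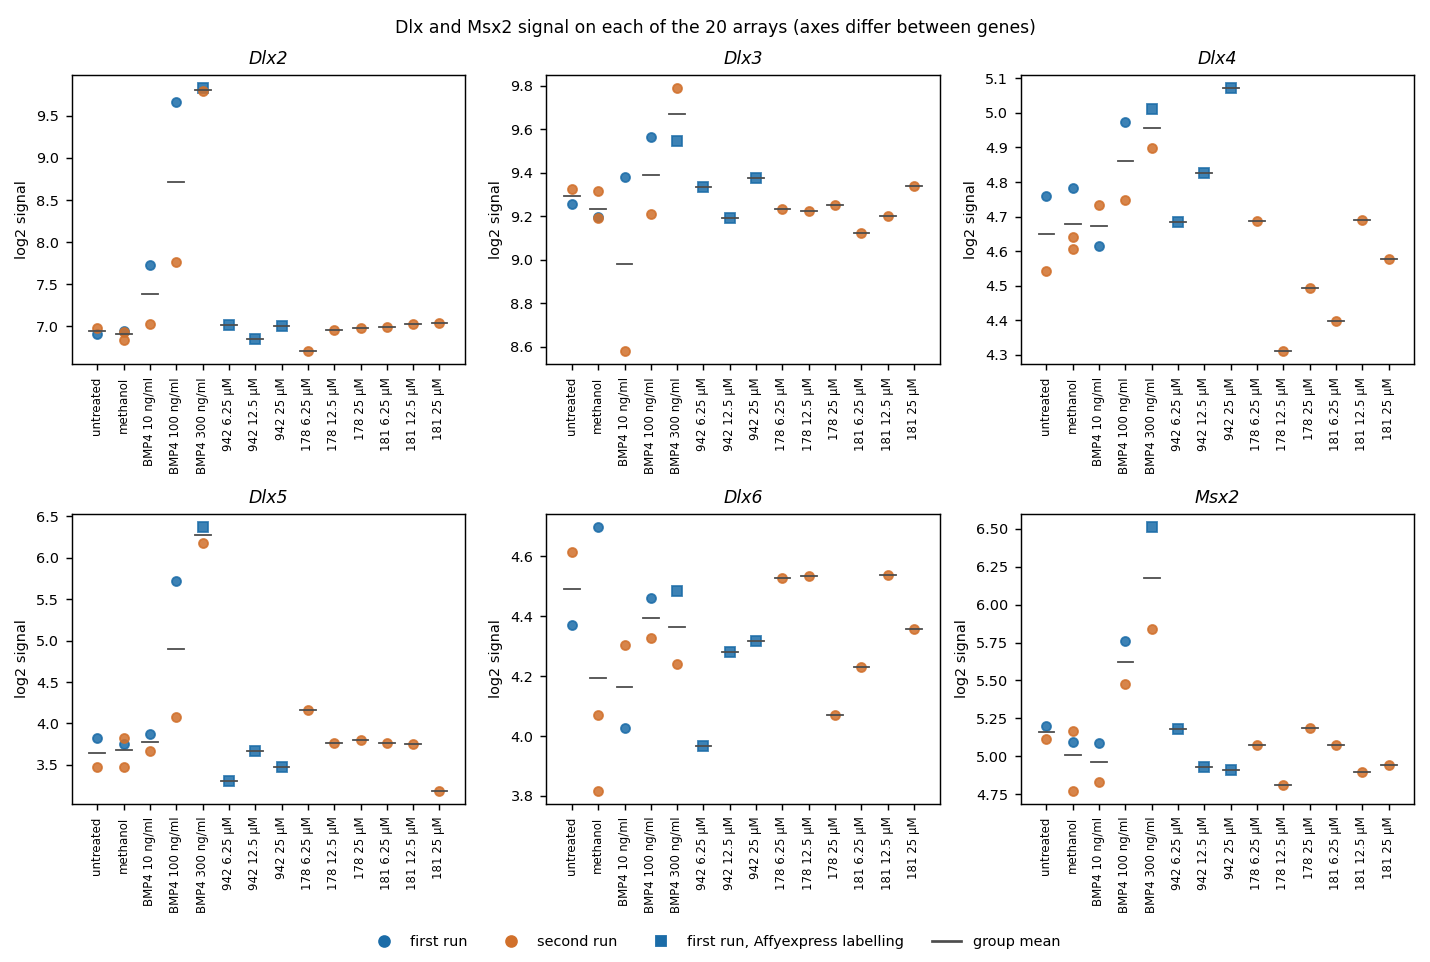
Log2 signal of the 6 members on each of the 20 arrays, by treatment and dose. Points are arrays, coloured by run and square where labelled by Affyexpress, dashes are group means, and the vertical axes differ between genes. Dlx2, Dlx5 and Msx2 stand highest at 300 ng/ml BMP4 (9.83, 6.37 and 6.51), and the compound arrays of Dlx2 and Msx2 lie below both arrays at 100 ng/ml.

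The dose itself was tested as a slope per doubling of BMP4 between 10 and 300 ng/ml. Here 3 of 6 members rose, beside 2.32% of all genes. The slope of Dlx2 was 0.48 per doubling (SE 0.10, adjusted p = 0.0165), that of Dlx5 was 0.47 (SE 0.089, adjusted p = 0.00931) and that of Msx2 was 0.18 (SE 0.042, adjusted p = 0.0268). Dlx3 had a slope of 0.16 (adjusted p = 0.0896), Dlx4 of 0.047 and Dlx6 of 0.024. All 3 calls were lost without BMP4 10 ng/ml replicate 2, to adjusted p values of 0.146 for Dlx2, 0.0806 for Dlx5 and 0.161 for Msx2. They were also lost without BMP4 300 ng/ml replicate 2, which leaves 10 and 100 ng/ml (0.164, 0.185 and 0.0882). The slope of Dlx3 passed with a term for the run (0.18, adjusted p = 0.0189) and when BMP4 10 ng/ml replicate 1 was left out (0.25, adjusted p = 0.00319).

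By single dose, the members called as higher than untreated numbered 0 of 6 at 10 ng/ml, 1 of 6 (Dlx2) at 100 ng/ml and 2 of 6 (Dlx2 and Dlx5) at 300 ng/ml. Over all genes, 0.555%, 4.40% and 3.70% rose at these doses in the same limma fit. At 10 ng/ml no member had an unadjusted p under 0.05, against 2227 of all genes. Both arrays of a dose exceeded all 5 controls in 1 of 6 members at 10 ng/ml (Dlx2), 3 of 6 at 100 ng/ml (Dlx2, Dlx5 and Msx2) and 5 of 6 at 300 ng/ml (all but Dlx6). For all genes these shares were 6.53%, 14.5% and 16%. No member lay below all controls at any dose. Between adjacent doses, none of the 6 members passed from 10 to 100 ng/ml (1.08% of all genes rose) or from 100 to 300 ng/ml (0.00902% rose). At an unadjusted p under 0.05 the first step had 3 members and 2857 of all 22180 genes. The second step had 1 member and 1129 genes. The first step was 1.34 for Dlx2 (adjusted p = 0.163), 1.13 for Dlx5 (adjusted p = 0.185) and 0.66 for Msx2 (adjusted p = 0.0869), and the second was 1.07 for Dlx2 (adjusted p = 0.999) and 1.28 for Dlx5 (adjusted p = 0.839). No step between neighbouring doses was thus called for any member.

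For Dlx2 and Dlx5 the runs differed most at 100 ng/ml. Against the untreated array of its own run, Dlx2 changed by 0.82, 2.75 and 2.92 at the 3 doses in the first run and by 0.052, 0.79 and 2.82 in the second. Dlx5 changed by 0.046, 1.89 and 2.54 in the first run and by 0.20, 0.61 and 2.71 in the second. At 300 ng/ml both genes thus had like differences in the runs, while at 100 ng/ml the first-run array stood nearer to the highest dose and the second-run array nearer to the lowest. Msx2 changed by -0.12, 0.56 and 1.31 in the first run and by -0.28, 0.37 and 0.73 in the second, higher at each dose than at the one below in both. Dlx3 changed by 0.12, 0.31 and 0.29 in the first run and by -0.75, -0.11 and 0.46 in the second, so its signs at the lower doses were opposite. Averaged over doses, the first and second runs gave 2.17 and 1.22 for Dlx2, 1.49 and 1.17 for Dlx5, and 0.58 and 0.27 for Msx2. Dlx3 gave 0.24 and -0.13, Dlx4 0.11 and 0.25, and Dlx6 -0.046 and -0.32. Of the 932 genes that rose in the mean over doses, 789 changed more in the first run at 10 ng/ml (medians 0.52 and 0.23), 640 at 100 ng/ml (0.84 and 0.75) and 506 at 300 ng/ml (0.89 and 0.86), so over these raised genes the runs lay furthest apart at the lowest dose. Of the 1021 genes that fell, 605, 759 and 597 changed more in the first run at the 3 doses. Their median difference between the runs was -0.11, -0.22 and -0.054, so over the lowered genes the runs lay furthest apart at 100 ng/ml. Run and array cannot be told apart here, since each run holds 1 array of a dose. At 300 ng/ml the first-run array also had Affyexpress labelling and its untreated array standard labelling, so labelling cannot be told apart either.

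**Figure D2:**
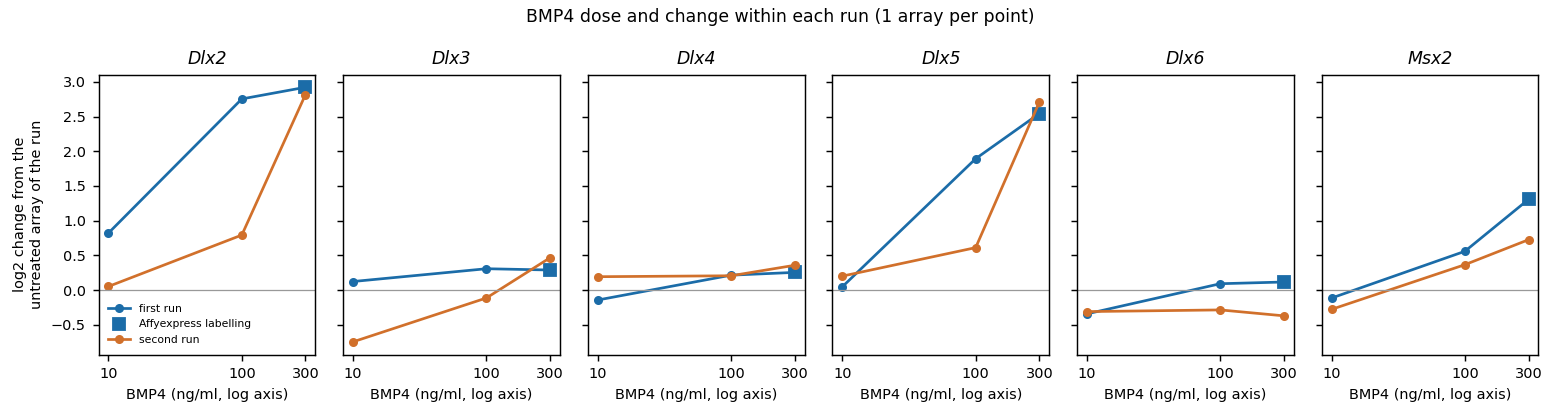
Change of each member from the untreated array of the same run (vertical axis, log2) against BMP4 dose (horizontal axis, ng/ml, log scale), 1 array per point. The lines of the runs lie together for Dlx2 at 300 ng/ml (2.92 and 2.82) and apart at 100 ng/ml (2.75 and 0.79). The first-run array at 300 ng/ml (square) was labelled by Affyexpress.

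Over the 20 arrays, Dlx2 had an SD of 1.03, Dlx5 of 0.91 and Msx2 of 0.42, beside a median of 0.175 for all genes. Dlx6, Dlx3 and Dlx4 had SDs of 0.23, 0.23 and 0.20. As a description, Pearson correlations over the 20 arrays were 0.948 for Dlx2 with Dlx5, 0.885 for Dlx2 with Msx2 and 0.882 for Dlx5 with Msx2. These arrays share treatments, so the values mostly restate the dose order. Dlx6 correlated with Dlx5, its genomic neighbour, at 0.177. Among 1096 genes with an SD of at least 0.4, those most like Dlx2 were Kazald1 (0.987), Lxn (0.985), Bmp2k (0.983), Fabp7 (0.981) and Niban1 (0.981). Most like Dlx5 were Krt16 (0.982), a keratin, Col2a1 (0.978), the collagen of cartilage, Fgfr3 (0.968), a receptor of fibroblast growth factors, Tnn (0.968) and Ctsh (0.966). Most like Msx2 were Prr9 (0.934), Fzd5 (0.931), a Wnt receptor, Foxq1 (0.929), Lum (0.924), a matrix proteoglycan, and Ostf1 (0.922).

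Dlx1 and Msx1 could not be given a value of their own. The probe set annotated to both Dlx1as and Dlx1 had log2 signals of 5.07 to 5.31 in the 5 control arrays. It stood at 5.76 and 5.08 at 10 ng/ml BMP4, 6.09 and 5.98 at 100 ng/ml and 5.69 and 6.38 at 300 ng/ml, and at 5.17 to 5.58 in the 9 compound arrays. All 4 arrays at the higher doses thus lay above every control and compound array, but which strand gave the signal was not tested. The annotation pairs Msx1 with Msx1os on a pair of probe sets. On one, controls ran from 6.91 to 7.18, with 7.42 and 7.23 at 100 ng/ml BMP4 and 7.21 and 7.05 at 300 ng/ml. On the other, controls ran from 4.72 to 5.34, with 5.23 and 5.31 at 100 ng/ml and 5.19 and 5.33 at 300 ng/ml, inside that range. These probe sets were not tested. Among the genes tested, both arrays lay above all 5 controls in 14.5% at 100 ng/ml and 16% at 300 ng/ml.

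The compounds were set against methanol, named beside them in the protocol, as means over their 3 single arrays. None of the 6 members was called for 942, 178 or 181 (limma), where 0% of all genes were called for 942 and for 178 and 0.00451% for 181. That single gene was Slc7a11, a cystine transporter, higher by 1.68 (adjusted p = 0.0317). At an unadjusted p under 0.05 the counts were 1 member and 333 genes for 942, 0 members and 547 genes for 178, and 0 members and 816 genes for 181. Methanol itself differed from untreated in 0 of 6 members and in 0% of all genes, with 634 genes and no member at an unadjusted p under 0.05.

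Over the 9 compound arrays, Dlx2 ran from 6.70 to 7.04 with a median of 6.99, below the lower array at 100 ng/ml BMP4. Its difference from methanol was 0.0060 for 942 (95% interval -1.54 to 1.55), -0.024 for 178 (-0.80 to 0.75) and 0.11 for 181 (-0.66 to 0.88). For 178 and 181, all of each interval thus lay below the 2.85 measured with 300 ng/ml BMP4. The 0.44 at 10 ng/ml BMP4 lay inside the Dlx2 intervals of all 3 compounds. The highest Dlx2 compound array, 181 at 25 µM (7.04), stood above the lower array at 10 ng/ml BMP4 (7.03). Dlx5 ran from 3.19 to 4.17 with a median of 3.75. Its highest compound array, 178 at 6.25 µM, stood at 4.17, above the 4.08 of the lower array at 100 ng/ml BMP4, while 12.5 and 25 µM of 178 gave 3.77 and 3.80. The differences of Dlx5 from methanol were -0.39 for 942 (-1.75 to 0.98), 0.23 for 178 (-0.45 to 0.91) and -0.12 for 181 (-0.80 to 0.57). Msx2 ran from 4.81 to 5.19 with a median of 4.94, inside the control range. It differed from methanol by 0.015 for 178 (-0.31 to 0.34) and by -0.037 for 181 (-0.36 to 0.29). For 942 the Msx2 difference was -0.67 (-1.32 to -0.028), with an unadjusted p of 0.0421 and an adjusted p of 0.9999, and it was -0.0037 without the labelling term. Its 942 arrays stood at 5.18, 4.93 and 4.91 from the lowest dose up, beside 5.09 for methanol in the same run. The labelling term equals the difference between the arrays at 300 ng/ml BMP4, 0.67 for Msx2. Dlx3 differed by 0.31, 0.0015 and -0.015 for 942, 178 and 181, Dlx4 by 0.070, -0.18 and -0.12, and Dlx6 by -0.25, 0.18 and 0.18. The single highest Dlx4 signal of all arrays was 942 at 25 µM, at 5.07, with 4.69 and 4.83 at its lower doses.

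**Figure D3:**
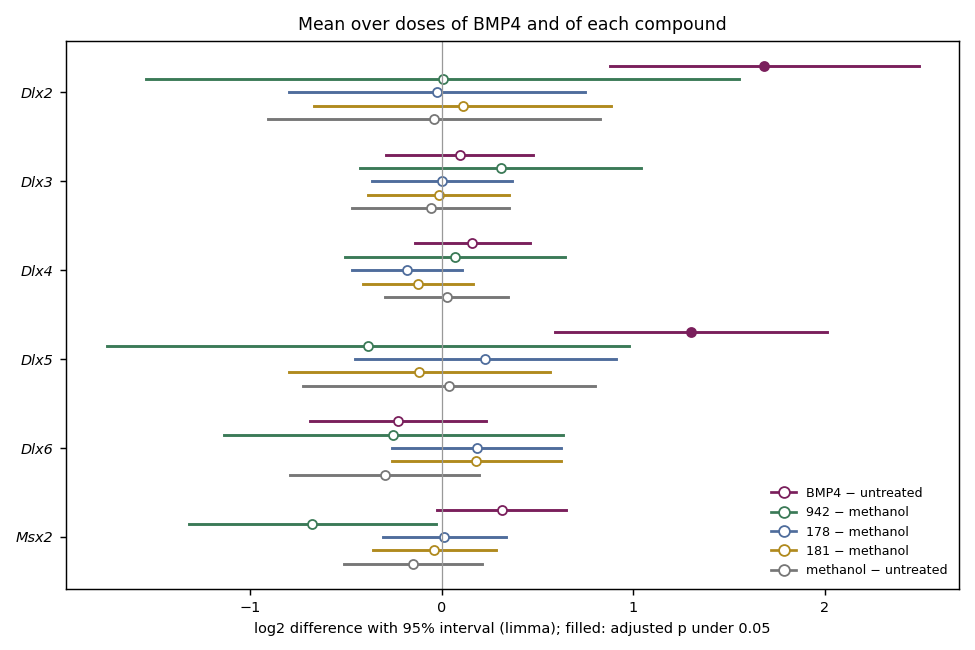
Log2 difference with its 95% interval (horizontal axis) for the 6 members, for BMP4 minus untreated, each compound minus methanol and methanol minus untreated. Filled points passed an adjusted p under 0.05, and these are Dlx2 (1.69) and Dlx5 (1.30) with BMP4. The intervals of compound 942 are the widest for each member, since the labelling term enters that contrast.

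The compounds were also compared with each other, in 3 pairs as means over matched doses and in 9 comparisons at a single matched dose. No member was called in any of the 12 comparisons. Over all genes, 0.00451% were called in 181 minus 178 as a mean and 0% in the others. At an unadjusted p under 0.05 there was 1 member, Msx2, in 178 minus 942 as a mean and at 25 µM. Of all genes, 401 and 423 were under that limit in these comparisons. The other comparisons had no such member. As a mean, Msx2 was 0.69 higher with 178 than with 942 (0.044 to 1.34, adjusted p = 0.9999) and 0.64 higher with 181 than with 942, and without the labelling term these differences were 0.019 and -0.033. Between 181 and 178, both of the second run and of standard labelling, the difference was 0.13 for Dlx2 (-0.64 to 0.91), -0.34 for Dlx5 (-1.03 to 0.34) and -0.052 for Msx2. At single doses the intervals were wider, as in Dlx5 for 181 minus 178 at 25 µM (-0.62, from -1.80 to 0.57). These intervals leave room for differences of the size of 1 doubling in Dlx5, so a lack of calls does not show that the compounds act alike.

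The change of the members stood beside other genes of the pathway and of the cell states that it directs. Of 22 measured BMP receptors, SMADs and direct targets, 5 rose and 1 fell with BMP4 (median 0.23, against -0.015 for all genes). Smad6, an inhibitory SMAD, was higher by 2.24 (adjusted p = 0.00118), and Smad9, a receptor-regulated SMAD, by 1.31 (adjusted p = 0.00140). Id1, a direct SMAD target, differed by 1.03 and did not pass (adjusted p = 0.162). In the list counts that follow, leaving out BMP4 300 ng/ml replicate 2 removed that whole dose, and the mean then covered 10 and 100 ng/ml. Without untreated replicate 1, untreated replicate 2 or BMP4 300 ng/ml replicate 2, the count in this list was 2 risen and 0 fallen, and without BMP4 10 ng/ml replicate 2 or with both controls joined 8 rose. Of 10 measured osteoblast genes, 7 rose and none fell (median 1.34), among them Sp7, a master factor of osteoblasts, by 3.97 (adjusted p = 7.40e-05), and Alpl, alkaline phosphatase, by 3.18 (adjusted p = 6.72e-04). With 1 common mean for the doses, 3 of these rose, and Alpl was not among them. Of 11 myogenic genes none rose and 7 fell (median -0.47), with Myog, myogenin, at -2.88 (adjusted p = 5.45e-05) and Myod1 at -0.67 (adjusted p = 0.0192), where 4.60% of all genes fell. The count fallen was 3 without untreated replicate 1 or 2, 4 without BMP4 300 ng/ml replicate 2 or without the trend, and 3, with 1 risen, under a common mean. Myod1 lost its call without any of these 3 arrays and under a common mean, and Myog under a common mean alone. Of 35 other homeobox factors outside the Hox clusters, 5 rose and 3 fell (median 0.019), so called genes of this wider class went both ways. Cux1 rose by 0.96 (adjusted p = 2.49e-04), and Prrx1, a factor of limb mesenchyme, by 0.64 (adjusted p = 0.00410). Six4, a factor of muscle precursors, differed by -0.74 (adjusted p = 2.47e-04) and Meis2 by -0.97 (adjusted p = 8.67e-04), both called as lower. The count risen in this list was 1 without untreated replicate 1, where Prrx1 lost its call, 2 with untreated replicate 2 left out and 3 if BMP4 300 ng/ml replicate 2 was, each with 2 fallen. It was 8 without BMP4 10 or 100 ng/ml replicate 2 or with a term for the run, and 9 with both controls joined. None of these lists had a called gene with any compound.

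**Figure D4:**
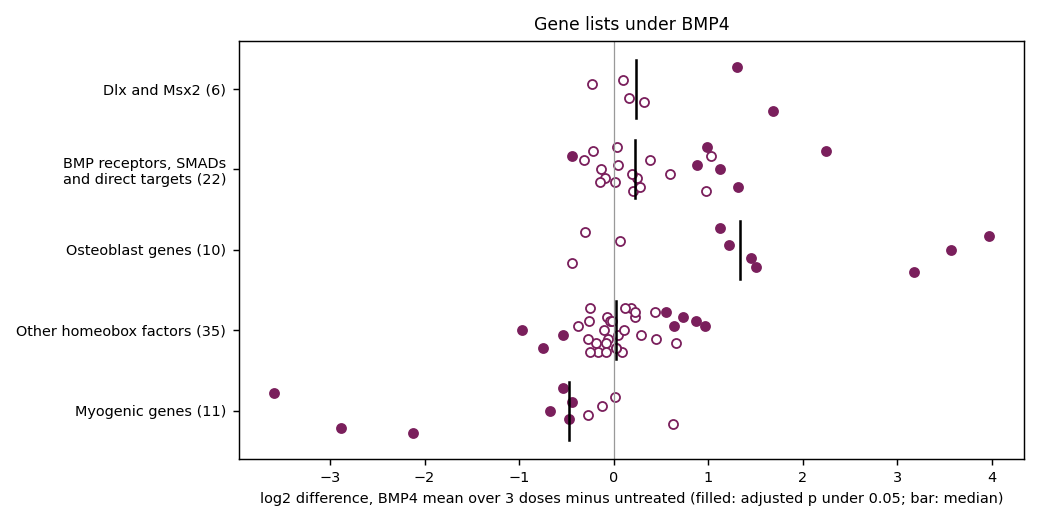
Log2 difference of BMP4 (mean over 3 doses) minus untreated (horizontal axis) for the genes of each list, with the number measured in brackets. Points are genes, filled where the adjusted p was under 0.05, and bars are list medians: 0.24 for the members, 1.34 for osteoblast genes and -0.47 for myogenic genes.

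Markers of other cells were read because Dlx and Msx genes also mark epidermis, neurons and neural crest. Of 5 measured epidermal markers, Krt14 rose by 3.12 (4.99 to 5.40 in controls and 5.30 to 9.88 with BMP4), while Trp63 (-0.67) and Dsg3 (-0.63) were called as lower and Krt1 and Krt10 did not pass. The call of Krt14 held in all 21 alternatives. As above, the alternative without BMP4 300 ng/ml replicate 2 was a mean of 10 and 100 ng/ml. Both lower calls were lost without untreated replicate 1, BMP4 10 ng/ml replicate 1 or methanol replicate 2. Trp63 also lost its call without BMP4 100 ng/ml replicate 1, BMP4 10 ng/ml replicate 2 or BMP4 300 ng/ml replicate 2, and Dsg3 without untreated replicate 2 or BMP4 100 ng/ml replicate 2. The log2 of the summed epidermal signal was 7.48 to 7.69 in controls and 7.55 to 10.1 with BMP4. In the list of neural crest and glia, S100b rose by 0.55, as 1 of 3 measured. It kept this call in 12 of 20 alternatives and lost it without either untreated array, BMP4 10 ng/ml replicate 1, BMP4 100 or 300 ng/ml replicate 2 or methanol replicate 2, against methanol and under a common mean. In the mean over doses no marker was called among 5 each of GABAergic neurons, macrophages and endothelium, while Tubb3, a neuronal tubulin in the first of these lists, had a slope of 0.22 per doubling (adjusted p = 0.00382). The summed myoblast signal was 13.3 in controls and 11.8 to 13.1 with BMP4. The part of Krt14 and of the lower myoblast markers in the Dlx and Msx values was not tested.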

How the data were processed

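Total RNA of 20 samples was measured on Affymetrix mouse arrays. The deposited values are log2 signals that the authors made in Partek 6.5 with RMA, per the submitters' processing notes. Whether the labelling batches were corrected, and the genome build, are not given in the sources used here. Of 41345 probe sets, 23521 had 1 symbol, 1814 several and 16010 none in the annotation. For 1082 genes with more than 1, the probe set with the highest mean was used. Values were fitted with limma 3.58.1 in R 4.3.3 (1 mean per treatment and dose, a labelling term, trended moderation, 5 residual degrees of freedom), tested on simulated data. Calls took an adjusted p under 0.05 (Benjamini-Hochberg over 22180 genes). Groups of 1 array borrowed the spread of the others, and the number of arrays limits the precision. All members were named, with at most 6 genes of a list by lowest p, the reference genes Myod1, Myog, Sp7, Id1 and Smad6, and the 5 most correlated genes. The members and lists were chosen with earlier results of these data known. Alternatives changed labelling, run, normalization, trend, filter, probe sets, control and each replicate in turn.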

Additional observations from a re-analysis of the deposited data

Results flagged for a closer look

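The probe set that the annotation gives to both Dlx1as and Dlx1 lies outside the genes tested, and its signal stood above the controls. At 100 ng/ml BMP4 its lower array exceeded the highest control array by 0.67 on the log2 scale, and at 300 ng/ml by 0.39. One of the probe sets shared by Msx1os and Msx1 exceeded the highest control by 0.058 at 100 ng/ml. At 300 ng/ml its lower array minus the highest control was -0.13, and the other probe set stayed inside the control range at both doses. Among the genes tested, both arrays exceeded all 5 controls in 14.5% at 100 ng/ml and 16% at 300 ng/ml.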

How the results depend on the processing

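With a term for the run, the genes called numbered 2988 for BMP4 over all doses (1953 as reported), 595 at 10 ng/ml (244), 3082 at 100 ng/ml (2030), 2678 at 300 ng/ml (1770) and 2211 for the slope (1197). With untreated and methanol arrays as 1 control they numbered 3354 for the mean, 548 at 10 ng/ml, 3069 at 100 ng/ml and 1 for compound 942 (0 as reported). Without the labelling term there were 2902 at 300 ng/ml and 1950 for the slope, and without the trend 140 at 10 ng/ml. Members called for the BMP4 mean fell from 2 to 0 with 1 common mean for the doses. At 100 ng/ml they went from 1 to 2 without the labelling term or with the run term, and to 3 against methanol or both controls. For 181 the 1 called gene became 0 under quantile normalization, no trend, removal of dim probe sets, averaged probe sets or a common mean, and for 181 minus 178 under quantile normalization or a common mean. For 178 minus 942 the count of 0 became 1 without the labelling term, with the run term or after median centring. Leaving out single arrays gave 915 to 2252 genes for the BMP4 mean, 63 to 357 at 10 ng/ml, 1116 to 2223 at 100 ng/ml, 1164 to 1980 at 300 ng/ml and 623 to 1550 for the slope. It gave 0 to 2 members for the mean, 0 to 2 at 100 ng/ml and 0 to 4 for the slope, and 0 to 1 genes for 181 and for each pair of compounds. The lowest counts came without untreated replicate 1 (915, 63, 1116 and 1164) and, for the slope, without BMP4 10 ng/ml replicate 2 (623). The cause of these moves was not tested.

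Of 1518 values of single members over 30 alternatives, 1485 kept their direction and side of the threshold, where a sign change of an uncalled value was not counted, 18 lost a call, 15 gained one and none reversed. The BMP4 contrasts gave 583 of these values, of which 550 were kept, and held every lost and gained call. The other 935, from contrasts in which no member was called, were all kept. Signs of uncalled values turned in 69. Quantile normalization or centring moved the median of all genes by -0.033 to 0.036 on the log2 scale. The filter at 5.00 kept 13907 genes and 5 of 6 members, Dlx6 being left out. Dlx5 passed this filter only through BMP4 300 ng/ml, and Dlx4 only through the array of 942 at 25 µM. Without a BMP4 300 ng/ml array the Affyexpress arrays were left out, since the labelling term could not be fitted, and without replicate 2 no value at that dose was made. The labels give no replicate numbers to pair by. The run of title numbers as a block added calls for Dlx5 at 100 ng/ml, Msx2 at 300 ng/ml and the slope of Dlx3.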
